A study of Mus musculus with 30 samples.

Results

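Mitochondria of heart muscle fuse, divide and keep their own genome, and the genes described here encode core proteins of these activities. They were 10 genes chosen by symbol from a deposited table of 13575 genes: Mfn1, Mfn2 and Opa1 for fusion, Dnm1l, Fis1 and Mff for fission, and Tfam, Tfb2m, Nrf1 and Polg for upkeep and expression of mitochondrial DNA. All 10 symbols were found once each, and all 10 genes passed the filter on low values.

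RNA was sequenced from mouse hearts in 6 libraries. The first 3 carry the label CM-RevDKO, the name of a cardiomyocyte double knockout of the REV-ERBα and REV-ERBβ receptors, and the other 3 carry the label control, from mice with floxed alleles. All hearts came from animals 2 months old, were taken at ZT10, which in zeitgeber time means 10 hours into the light phase, and had the atria trimmed off. For the ChIP libraries of the same series the labels give an αMHC-Cre transgene, present or absent, on floxed Rev-erbα and Rev-erbβ alleles, so floxed alleles are shared by both groups there. If the RNA controls lack Cre, an effect of Cre and an effect of receptor loss cannot be told apart. Whether replicates are separate animals is not stated, so p-values measure the spread between these samples, which may be technical. The ChIP and Cut&Run samples of the series were not analysed here.

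As background, mitofusins MFN1 and MFN2 are GTPases that join outer membranes, and OPA1 is the GTPase that joins inner membranes and keeps cristae in shape. DRP1, encoded by Dnm1l, is a cytosolic GTPase that is drawn to the outer membrane by adaptors such as MFF and constricts the organelle there, while FIS1 is an outer membrane protein linked to fission. TFAM packages mitochondrial DNA and starts its transcription with TFB2M, POLG is the catalytic subunit of the mitochondrial DNA polymerase, and NRF1 is a nuclear transcription factor that drives many genes of mitochondrial proteins. In mice, loss of both mitofusins from heart muscle leads to cardiomyopathy.

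None of the 10 genes passed the test between the libraries labelled CM-RevDKO and those labelled control. In limma, with p-values adjusted over 13256 genes, 332 genes or 2.5% were called, 1.26% higher and 1.24% lower with the label CM-RevDKO, and the adjusted p of the 10 genes ran between 0.263 and 0.888. At an unadjusted p under 0.05 there were 2 of 10 genes, Fis1 and Mfn1, beside 16.6% of all genes. The estimates themselves were small. On the log2(FPKM + 1) scale the 10 fold changes lay between -0.22 and 0.31 with a median of -0.07, where the median of all genes tested was 0.02. The 3 fusion genes all had negative estimates and the 3 fission genes all had positive ones, and none of these 6 passed the test. Of the 13256 genes tested, 46.3% had negative and 53.7% positive estimates. Among the accessory genes described below, 8 of 12 for fusion and 7 of 12 for fission had positive estimates. Those lists were not sorted by whether a protein promotes or restrains its process. Their signs therefore cannot test the opposed signs of the 6 genes. For 4 of the 10 genes the ranges of the groups were separate, Mfn1, Opa1 and Polg being lower and Fis1 higher in the libraries labelled CM-RevDKO, a share to be read against the 23.1% of all genes whose groups did not overlap.

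The labels could be checked on the targeted genes to a limited degree. Nr1d1, which encodes REV-ERBα, had 55.6, 47.4 and 47.9 FPKM in the libraries labelled CM-RevDKO, against 23.9, 22.6 and 15.0 FPKM in those labelled control. It was called higher (limma adjusted p = 0.0124), which goes against the direction of a knockout of this gene. Gene-level values include exons that a deletion may leave in place, and no label says which exons were removed. Nr1d2, which encodes REV-ERBβ, had 28.8, 26.6 and 26.7 FPKM with the label CM-RevDKO and 40.3, 30.6 and 36.3 FPKM with the label control. Its values with the label CM-RevDKO were all lower, as for 10.5% of all genes, and it did not pass the test in limma (adjusted p = 0.175). Arntl, the clock activator gene that REV-ERB represses, averaged 12.8 ± 0.229 FPKM in the libraries labelled CM-RevDKO and 0.174 ± 0.109 FPKM in those labelled control (SD, n = 3 each). It was called higher (log2 fold change 3.56, limma adjusted p = 1.7e-05), which goes with the label's direction. Every direction given here rests on the labels.

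The summed FPKM values of the libraries were close, while the sums of several marker lists varied among them. Summed values were 702391 to 712158 with the label CM-RevDKO and 678722 to 691212 with the label control, ranges that did not overlap. These sums do not give sequencing depth, which is unknown. All 10 cardiomyocyte markers were present, with a summed level of 30775 to 34298 FPKM with the label CM-RevDKO and 31097 to 33373 FPKM with the label control. Groups were separate for 6 of these 10 markers, beside 23.1% of all genes, and 0 were called. The 10 atrial markers summed to 958 to 1698 FPKM with the label CM-RevDKO and 433 to 486 FPKM with the label control. Taken singly, 4 of these 10 had separate groups, beside 23.1% of all genes, and 1 of them, Nppa, passed the test. The 7 adipocyte markers found in the table summed to 601 to 1134 FPKM with the label CM-RevDKO and 702 to 830 FPKM with the label control. The 5 blood markers found summed to 8703 to 11003 FPKM with the label CM-RevDKO and 5010 to 9005 FPKM with the label control. CM-RevDKO replicate 1 had the highest sum in 5 of 7 marker lists, the atrial, adipocyte, blood, endothelial and macrophage ones. The part of these markers in the results was not tested, other than by an atrial covariate in the fit. That covariate is the mean over the atrial markers, among them Nppa, which was called higher with the label CM-RevDKO. The atrial sums did not overlap between the groups, so the covariate and the label cannot be fully told apart. In heart tissue, fewer cells of a type and less RNA per cell cannot be told apart.

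**Figure D1:**
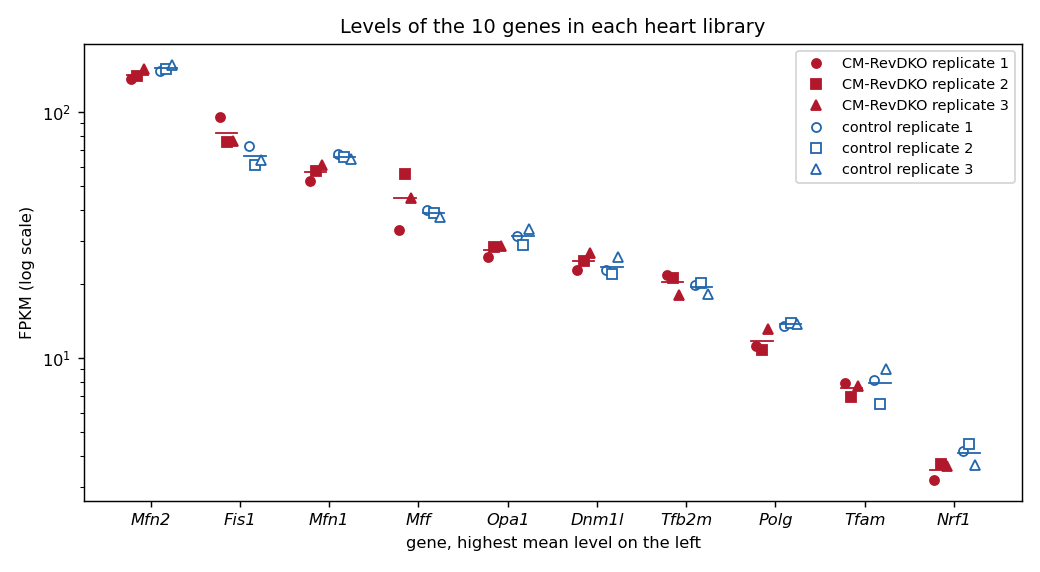
Levels of the 10 genes in FPKM on a log axis, with genes ordered by mean level. Filled red symbols are the 3 libraries labelled CM-RevDKO, open blue symbols the 3 labelled control, and short lines are group means. The order of the genes spans Mfn2 at 136 to 156 FPKM down to Nrf1 at 3.20 to 4.50 FPKM, and the groups lie close together at every gene.

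Levels differed far more between the genes than between the groups. Values were read as FPKM. FPKM and TPM are both scaled to transcript length, so levels of different genes may be set side by side. Mfn2 was the highest of the 10 in all 6 libraries, and its lowest value, 136 FPKM, was above the highest of Fis1, 95.7 FPKM. Fis1 and Mfn1 overlapped, with Fis1 above Mfn1 in 4 of the 6 libraries. The ranges of Mfn1 and Mff, of Mff and Opa1, and of Opa1 and Dnm1l also overlapped, although within each library the first of each pair was the higher. From Dnm1l downward, through Tfb2m, Polg, Tfam and Nrf1, neighbours in the order did not overlap. The genes of mitochondrial DNA lay below those of fusion and fission, and Nrf1, a transcription factor, was the lowest.

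Before the values, the promoters of some of these genes are shown, because REV-ERB acts by binding DNA and because Nrf1 and the GABP factor, also called NRF2, are known for their sites in genes of mitochondrial proteins. The sequences are from RefSeq on GRCm38.p6, the build also called mm10, and the windows searched ran 250 bases before to 50 after an annotated start. The 10 genes had 16 such windows. On both strands, the letters AGGTCA, the half-site that REV-ERB and ROR receptors bind, were in none of the 16, while 16.3% of all 32851 windows held them. CACGTG, the E-box of CLOCK and BMAL1, and TTANGTAA, a form of the D-box that E4BP4 binds, were also in none, with 7.15% and 2.32% of all windows holding them. GCATGCG, a core of the NRF1 site, was in 2 of the 16 windows, those of Opa1 and Tfb2m (3.58% of all windows), in both as a palindrome matched on both strands. CCGGAAG, a core of the GABP site, was in 6 of the 16 windows, of Mfn1, Dnm1l, Fis1, Tfam and Polg (8.86% of all windows). The members' windows were rich in G and C, at 46.3% to 77.0%, and 14 of the 16 were above the median of all windows, 52.7%, so these shares are not matched for base composition. A match is only a run of letters, and the lack of one says nothing about binding outside these windows. Shown are the 120 bases before an annotated start, with NRF1, GABP and E-box letters in capitals. They are given for the 4 genes whose groups did not overlap, for Tfam, and for Slc25a33. The last is the gene of the wider lists that passed the test, and its window held no AGGTCA but a CACGTG. An annotated start need not be the end of the gene span given below. The stretches shown for Tfam and Polg lie inside those spans, and those for Mfn1 and Opa1 do so in part.
Mfn1, chr3:32529362-32529481, plus strand: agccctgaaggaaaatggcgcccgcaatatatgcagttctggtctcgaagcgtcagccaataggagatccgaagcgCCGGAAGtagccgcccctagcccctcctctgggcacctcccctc
Opa1, chr16:29579214-29579333, plus strand: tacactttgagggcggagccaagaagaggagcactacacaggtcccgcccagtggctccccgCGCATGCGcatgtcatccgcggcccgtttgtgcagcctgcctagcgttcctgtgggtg
Fis1, chr5:136953155-136953274, plus strand: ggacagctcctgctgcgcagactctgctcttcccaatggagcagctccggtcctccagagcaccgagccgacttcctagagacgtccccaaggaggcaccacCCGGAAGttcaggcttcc
Tfam, chr10:71238045-71238164, minus strand: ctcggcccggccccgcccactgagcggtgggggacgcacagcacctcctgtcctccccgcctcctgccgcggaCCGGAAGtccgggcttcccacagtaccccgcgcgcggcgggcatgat
Polg, chr7:79466274-79466393, minus strand: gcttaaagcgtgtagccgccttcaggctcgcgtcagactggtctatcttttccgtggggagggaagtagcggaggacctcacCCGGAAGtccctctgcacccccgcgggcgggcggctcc
Slc25a33, chr4:149774268-149774387, minus strand: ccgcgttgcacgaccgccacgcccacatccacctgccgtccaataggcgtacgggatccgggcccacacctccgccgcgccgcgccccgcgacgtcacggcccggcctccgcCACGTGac

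The estimates of the 3 fusion genes were negative, and none passed the test. Mfn1 (ENSMUSG00000027668, chromosome 3, 32529443 to 32579225) had 52.3, 57.5 and 60.8 FPKM in the libraries labelled CM-RevDKO, against 67.4, 65.7 and 64.6 FPKM in those labelled control. All 3 libraries labelled CM-RevDKO lay below all controls, and the control values were nearly the same. The log2 fold change of Mfn1 was -0.21 (SE 0.09, 95% interval -0.42 to -0.003, limma adjusted p = 0.297), and over 17 alternative settings it ran between -0.28 and -0.08 without being called. Annotation of the 3′ end of Mfn1 overlaps Gnb4 by 639 bases, and without strand the reads there cannot be told apart. Gnb4 averaged 3.11 FPKM with the label CM-RevDKO and 3.90 FPKM with the label control.

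Mfn2, the more abundant mitofusin gene (chromosome 4, 147873586 to 147904909), had 136, 140 and 149 FPKM in the libraries labelled CM-RevDKO and 147, 149 and 156 FPKM in those labelled control. The groups overlapped, and the log2 fold change was -0.09 (SE 0.08, 95% interval -0.28 to 0.10, limma adjusted p = 0.639). Mfn2 stood at 2.60, 2.43 and 2.46 times the level of Mfn1 within the libraries labelled CM-RevDKO and at 2.18, 2.27 and 2.41 times within those labelled control. These ratios did not overlap. They are a description. Of 7 ratios between members, computed with the values known, 2 did not overlap between the groups, Mfn2 to Mfn1 and Fis1 to Mfn1, and the other 5 did. With Fis1 higher and Mfn1 lower in every library labelled CM-RevDKO, the Fis1 to Mfn1 ratio could not overlap, so it adds nothing to them. The share for other pairs of genes was not computed.

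Opa1, the inner membrane fusion GTPase gene (chromosome 16, 29579281 to 29663127), had 25.6, 28.4 and 28.5 FPKM in the libraries labelled CM-RevDKO, against 31.3, 28.9 and 33.4 FPKM in those labelled control. The groups did not overlap, but the gap between the nearest libraries was small. The log2 fold change was -0.18 (SE 0.10, 95% interval -0.40 to 0.05, limma adjusted p = 0.414).

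The estimates of the 3 fission genes were positive, again with none past the test. Fis1 (chromosome 5, 136953275 to 136966234) had 95.7, 75.6 and 75.9 FPKM in the libraries labelled CM-RevDKO and 72.8, 61.1 and 64.0 FPKM in those labelled control. The groups did not overlap, and CM-RevDKO replicate 1 was well above the rest. Fis1 had the smallest p of the 10 genes, with a log2 fold change of 0.31 (SE 0.12, 95% interval 0.02 to 0.60, limma adjusted p = 0.263). Atrial markers were also highest in CM-RevDKO replicate 1, and with their mean as a covariate the Fis1 estimate was -0.01 (limma adjusted p = 0.987). The atrial sums were themselves separate between the groups, so that covariate takes up part of the difference between the labels. Whether atrial tissue has a part in the Fis1 values was not tested. Without CM-RevDKO replicate 1 the groups of Fis1 still did not overlap, and its log2 fold change was 0.20 (limma adjusted p = 0.479). Within a library Fis1 stood at 1.83, 1.31 and 1.25 times Mfn1 with the label CM-RevDKO, against 1.08, 0.931 and 0.991 times with the label control.

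Dnm1l, which encodes the fission GTPase itself (chromosome 16, 16312228 to 16359038), had 22.8, 24.8 and 26.7 FPKM in the libraries labelled CM-RevDKO and 22.9, 21.9 and 25.7 FPKM in those labelled control. The groups overlapped almost completely, with a log2 fold change of 0.07 (SE 0.10, 95% interval -0.17 to 0.32, limma adjusted p = 0.774). Its adaptor gene Mff (chromosome 1, 82724890 to 82752390) had 33.3, 55.8 and 44.6 FPKM with the label CM-RevDKO, against 40.0, 38.7 and 37.6 FPKM with the label control. Mff was the most variable of the 10 genes among the libraries labelled CM-RevDKO, with a coefficient of variation of 25.3% there and 3.09% among those labelled control, and CM-RevDKO replicate 1 lay below every control. Its log2 fold change was 0.17 (SE 0.17, 95% interval -0.24 to 0.57, limma adjusted p = 0.684) and was -0.01 without CM-RevDKO replicate 2. In the annotation Mff overlaps a pair of noncoding RNA genes.

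**Figure D2:**
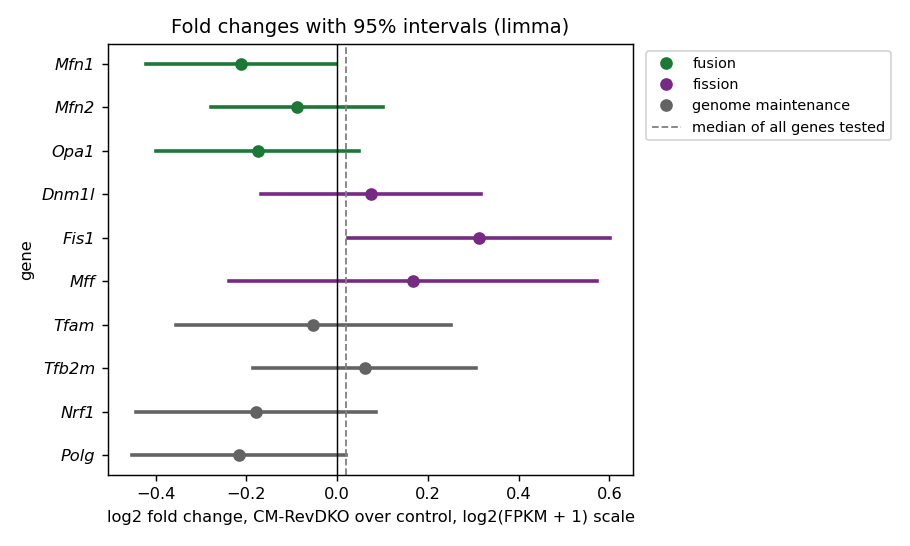
Log2 fold changes of libraries labelled CM-RevDKO over those labelled control for the 10 genes, on the log2(FPKM + 1) scale, with 95% intervals from limma (3 libraries per group). Fusion genes lie left of 0, at -0.21, -0.09 and -0.18, and fission genes right of it, at 0.07, 0.31 and 0.17, and the intervals of all but Mfn1 and Fis1 include 0. The dashed line is the median of all genes tested, 0.02.

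The genes of mitochondrial DNA packaging and transcription were close between the groups. Tfam (chromosome 10, 71225468 to 71238328) had 7.90, 6.96 and 7.74 FPKM in the libraries labelled CM-RevDKO and 8.18, 6.50 and 9.02 FPKM in those labelled control. All 3 values with the label CM-RevDKO lay inside the range of the controls, and the log2 fold change was -0.05 (SE 0.13, 95% interval -0.35 to 0.25, limma adjusted p = 0.888). Tfb2m (chromosome 1, 179528052 to 179546305) had 21.8, 21.1 and 18.0 FPKM with the label CM-RevDKO, against 19.8, 20.3 and 18.1 FPKM with the label control. Both groups spread over the same few FPKM, and its log2 fold change was 0.06 (SE 0.11, 95% interval -0.18 to 0.31, limma adjusted p = 0.828). The sign of the Tfam estimate turned without control replicate 3, and that of Tfb2m turned when libraries were scaled without the mitochondrially encoded genes.

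Polg, the polymerase gene (chromosome 7, 79446231 to 79467911), had 11.2, 10.8 and 13.1 FPKM in the libraries labelled CM-RevDKO and 13.6, 13.8 and 13.7 FPKM in those labelled control. The controls were nearly identical, with a coefficient of variation of 1.06%, and the libraries labelled CM-RevDKO were all lower, replicate 3 by little. The log2 fold change of Polg was -0.22 (SE 0.10, 95% interval -0.45 to 0.02, limma adjusted p = 0.340), the most negative of the 10. Its annotation overlaps Fanci over 4036 bases, and the reads of that stretch cannot be told apart without strand. Nrf1, the nuclear respiratory factor and not the stress factor of similar name (chromosome 6, 30047985 to 30153458), had 3.20, 3.72 and 3.66 FPKM with the label CM-RevDKO, against 4.19, 4.50 and 3.68 FPKM with the label control. The groups overlapped narrowly, with a log2 fold change of -0.18 (SE 0.11, 95% interval -0.44 to 0.09, limma adjusted p = 0.482).

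The intervals bound what these 6 libraries leave possible in the main fit, with the values scaled as deposited. Other scaling moves them. Under quantile normalization the Mfn2 estimate was -0.23 (SE 0.09, limma adjusted p = 0.254), against -0.09 in the main fit, which gave the bounds that follow. For Mfn2 the bound farthest from 0 corresponds to a fold change of 1.21 on the FPKM + 1 scale, for Tfb2m to 1.24, for Dnm1l to 1.25 and for Tfam to 1.28. The bounds farthest from 0 among the 10 genes were those of Fis1 and Mff, at 1.52-fold and 1.49-fold. A missed threshold does not show that the groups were the same.

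Around the 10 genes, 8 lists of 104 related genes were read from the same fit, and 93 of these genes were tested. A single gene passed the test, Slc25a33, and it was lower with the label CM-RevDKO, where 1.24% of all genes were called lower. Slc25a33 encodes a carrier that brings pyrimidine nucleotides into mitochondria. It had 6.52, 7.19 and 7.28 FPKM in the libraries labelled CM-RevDKO, against 14.8, 13.0 and 15.9 FPKM in those labelled control. The groups were far apart and each was tight. Slc25a33 fell by 0.96 on the log2 scale (SE 0.11, 95% interval -1.21 to -0.71, limma adjusted p = 0.00517), to 6.996 ± 0.419 FPKM with the label CM-RevDKO against 14.6 ± 1.46 FPKM with the label control (SD, n = 3 each). Dropping any single library left the call in place (adjusted p of 0.0151 to 0.0363). The call ended with atrial markers as a covariate (log2 fold change -0.90, adjusted p = 0.171) and for CM-RevDKO replicate 3 alone against the controls (-0.90, adjusted p = 0.160), at nearly the same fold change.

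**Figure D3:**
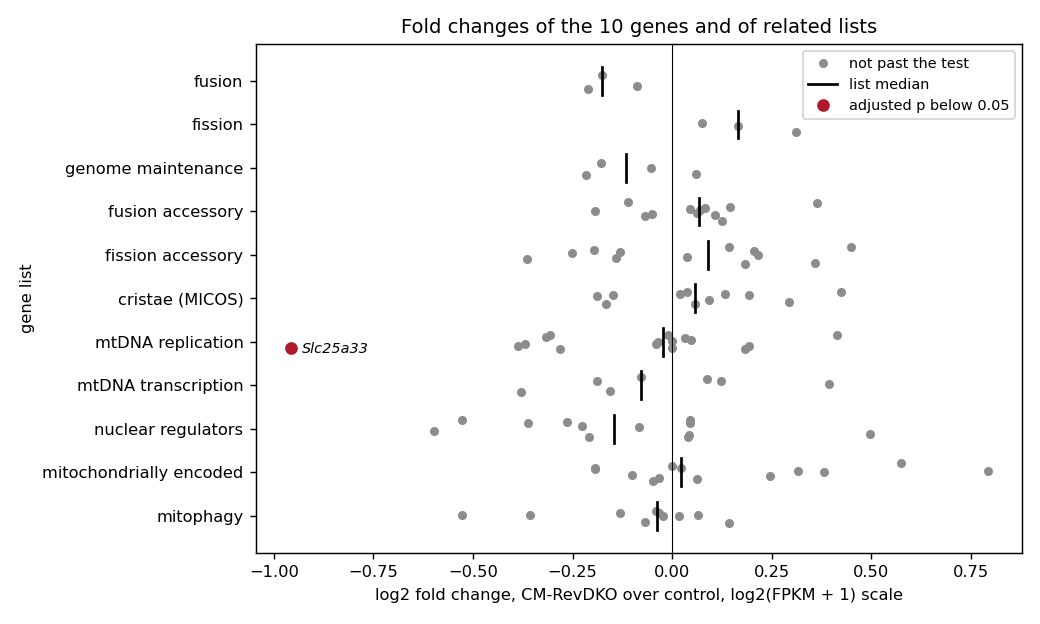
Log2 fold changes, libraries labelled CM-RevDKO over those labelled control, of the 10 genes (upper 3 rows) and of 8 related lists. Each point is a gene on the log2(FPKM + 1) scale, black bars are list medians, and the red point is Slc25a33 at -0.96, the single gene with a limma adjusted p under 0.05.

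Slc25a33 belongs to the list of mitochondrial DNA replication and nucleotide supply, of which 16 of 19 genes were tested, 0 rose and 1 fell. The median log2 fold change of this list was -0.02, near that of all genes. Groups did not overlap for 5 of the 16 genes, 4 of them lower and 1 higher with the label CM-RevDKO, against 23.1% of all genes in either direction. Among the 7 genes tested for transcription and RNA handling in mitochondria none passed. Lrpprc, which stabilises mitochondrial messenger RNAs, had 25.7, 28.4 and 30.0 FPKM in the libraries labelled CM-RevDKO and 34.8, 34.6 and 40.9 FPKM in those labelled control (log2 fold change -0.38, limma adjusted p = 0.129). Mterf1a, a termination factor gene listed as Mterf, was low, averaging 1.04 FPKM with the label CM-RevDKO and 0.541 FPKM with the label control (limma adjusted p = 0.339).

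**Figure D4:**
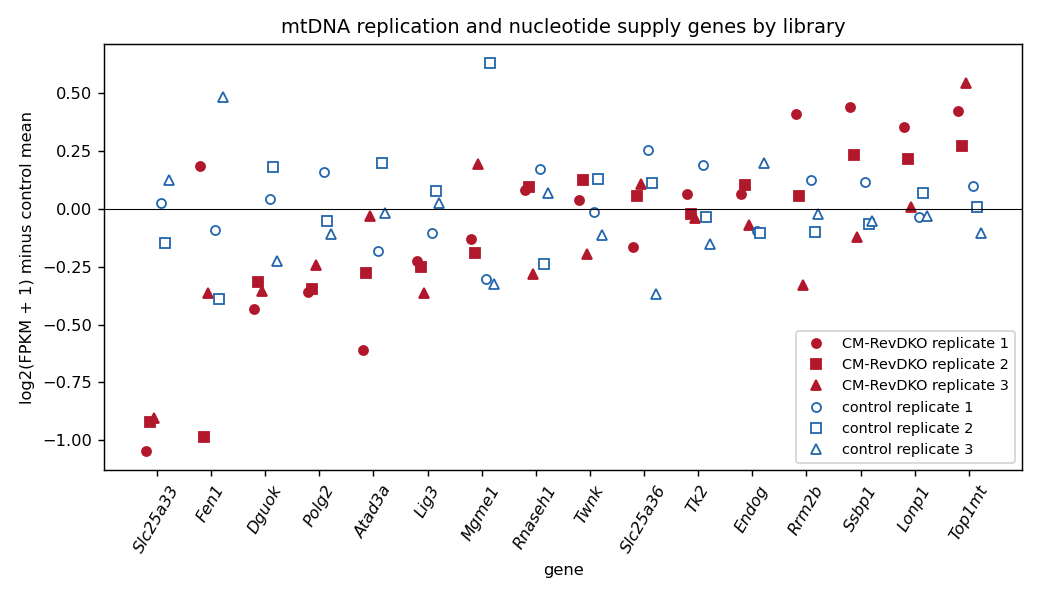
Level of each tested gene of the mitochondrial DNA replication and nucleotide supply list in each library, as log2(FPKM + 1) minus the mean of the control libraries. Filled red symbols are libraries labelled CM-RevDKO and open blue symbols those labelled control. Slc25a33, on the left, is the gene whose libraries labelled CM-RevDKO all lie near -1, with the controls near 0.

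The mitochondrially encoded transcripts, which TFAM, TFB2M and the mitochondrial RNA polymerase serve to make, did not pass the test either, with 0 of 13 called. Their median log2 fold change was 0.02. mt-Atp8 had the smallest p, with 18989, 19303 and 9768 FPKM in the libraries labelled CM-RevDKO and 8032, 9148 and 9375 FPKM in those labelled control (limma adjusted p = 0.175). mt-Nd4l had 13180, 14519 and 8501 FPKM with the label CM-RevDKO, against 7936, 7242 and 8541 FPKM with the label control (limma adjusted p = 0.199). In both genes CM-RevDKO replicates 1 and 2 stood high and replicate 3 lay at the level of the controls. In mt-Nd3 (log2 fold change 0.38), mt-Cytb (0.32) and mt-Nd2 (0.25) replicates 1 and 2 were likewise above all controls, with replicate 3 inside the control range. Their limma adjusted p were 0.30, 0.29 and 0.36. In mt-Nd1 (0.06, limma adjusted p = 0.841) replicates 1 and 2 were above all controls and replicate 3 was below them. The difference was not shared by mt-Atp6 (log2 fold change -0.10, limma adjusted p = 0.649) or mt-Nd4 (0.001, limma adjusted p = 0.998). Of the 13 estimates, 5 were negative (38.5%, against 46.3% of all genes). Without replicate 3, mt-Atp8 and mt-Nd4l were called, at adjusted p of 0.00648 and 0.0161 in limma. With mt-Cytb, also called, 4 genes of the lists passed in that fit.

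Of the nuclear regulators of mitochondrial genes 0 of 12 were called, 7 of the 12 had negative estimates (58.3%, against 46.3% of all genes), and the median log2 fold change was -0.15. Ppargc1a, which encodes the coactivator PGC-1α that works with NRF1, had 7.73, 11.2 and 10.5 FPKM in the libraries labelled CM-RevDKO and 16.0, 12.9 and 14.5 FPKM in those labelled control. Its groups did not overlap, and it had a log2 fold change of -0.53 (SE 0.15, limma adjusted p = 0.134). Its relative Ppargc1b had 6.55, 6.69 and 7.34 FPKM with the label CM-RevDKO, against 9.25, 8.32 and 9.75 FPKM with the label control (log2 fold change -0.36, limma adjusted p = 0.128).

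Proteins that act on the fusion and fission machines gave 0 calls of 12 in each list. The lists were not sorted by whether a protein promotes or restrains its process. The sign of an estimate, that of Akap1 included, therefore gives no direction of fusion or fission. Estimates were positive for 66.7% of the fusion accessory genes and 58.3% of the fission accessory genes, beside 53.7% of all genes. The median log2 fold changes were 0.07 and 0.09. Among fusion accessory genes Yme1l1, a protease that cuts OPA1, had 11.7, 12.4 and 11.7 FPKM in the libraries labelled CM-RevDKO and 14.7, 13.6 and 13.1 FPKM in those labelled control (limma adjusted p = 0.344). Miga2, listed as Fam73b, had 16.5, 19.2 and 24.8 FPKM with the label CM-RevDKO, against 13.8, 17.0 and 15.0 FPKM with the label control (limma adjusted p = 0.300). Among fission accessory genes Akap1, an outer membrane anchor of protein kinase A, which phosphorylates DRP1, had 26.7, 36.1 and 36.5 FPKM with the label CM-RevDKO and 24.0, 24.6 and 22.6 FPKM with the label control. The groups of Akap1 did not overlap, and it missed the threshold (log2 fold change 0.45, SE 0.13, limma adjusted p = 0.149) except without CM-RevDKO replicate 1, where its adjusted p was 0.0382. Mtfr1l, listed as Fam54b, averaged 62.8 FPKM with the label CM-RevDKO and 54.0 FPKM with the label control (limma adjusted p = 0.310).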

How the data were processed

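RNA values came from 1 table that the authors deposited, with 1 value per gene and library for 6 of the series' 30 samples. Its header names no unit. The deposited values were read as FPKM, though TPM remains possible. The submitters' processing notes name HISAT2, StringTie and mm10, with annotation and strand use not given in the sources used. The labels' protocols give TRIZOL extraction and the NEBNext Ultra II kit. Columns matched labels by group and replicate number. Values were analysed as log2(FPKM + 1), which understates changes of low genes. Genes with a mean of at least 0.5 (13256) entered a linear model in limma 3.58.1 under R 4.3.3 (eBayes with trend, group as sole term, two-sided p, Benjamini-Hochberg, threshold 0.05), a fit tested on simulated data. The members and lists were chosen with earlier results of these data known, and the promoter motifs after the promoters had been searched. Genes named were the 10 members, Nr1d1, Nr1d2, Arntl, and from each list up to 4 genes past the test or else the 2 with the smallest p, plus the 3 genes nearest in pattern to the member with the smallest p. Gnb4, Nppa, mt-Cytb, mt-Nd1, mt-Nd2, mt-Nd3, mt-Atp6 and mt-Nd4 lie outside this rule, picked after their values were seen. Depth is unknown, so no counting interval is given. Alternatives covered pseudocount, filter, scaling, trend, covariate, replicate block and libraries left out.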

Additional observations from a re-analysis of the deposited data

How the results depend on the processing

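None of the 10 genes was called under any of 17 alternatives to the pseudocount, filter, scaling, trend, block, covariate or set of libraries (16 for Nrf1, which a minimum mean of 5 FPKM removes). Their median log2 fold change stayed between -0.14 and -0.02. Estimates of members changed sign for Fis1 (-0.011) and Tfb2m (-0.036) with the atrial covariate, and for Tfb2m also when scaled without mitochondrially encoded genes (-0.0052) and for CM-RevDKO replicate 3 alone against the controls (-0.10, from a single library assumed to vary like the controls). The atrial covariate moved other estimates away from 0, such as Mff to 0.63 (limma adjusted p = 0.405) and Tfam to -0.22. In the related lists it moved Akap1 to 0.81 and Miga2 to 0.73, and Ppargc1a toward 0, to -0.24. With each library left out in turn, Mff ran between -0.0072 and 0.36 and Tfam between -0.17 and 0.038. None of these was called, and the cause was not tested. Over all genes, 332 calls became 27 with the atrial covariate, 21 for CM-RevDKO replicate 3 alone, 105 with both CM-RevDKO replicate 1 and control replicate 2 removed, and 120 to 322 with each library left out. Calls in the related lists were 0 with the atrial covariate, 0 for CM-RevDKO replicate 3 alone and 1 to 4 with a library left out, against 1. The replicate block gave 115 calls, the same 1 in the lists and 0 of 10 members. Same-numbered libraries deviated from their group means with correlations of -0.04, -0.06 and 0.09 across genes, and the labels do not pair them. Depth is unknown and limits low genes such as Nrf1.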

Other observations

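Cristae organisation and mitophagy, which work beside fusion and fission, gave no calls. Of 11 genes of the MICOS complex and its partners, which hold cristae junctions, 0 were called. Micos13, listed as 2410015M20Rik, had 208, 156 and 164 FPKM in the libraries labelled CM-RevDKO and 120, 135 and 134 FPKM in those labelled control (limma adjusted p = 0.149). Chchd6, another MICOS subunit gene, had 7.54, 7.05 and 8.47 FPKM with the label CM-RevDKO, against 5.75, 6.09 and 6.36 FPKM with the label control (limma adjusted p = 0.208). In both genes all values with the label CM-RevDKO were above all controls, as for 12.6% of all genes. The log2 fold change of Micos13 was 0.42, and 0.15 with atrial markers as a covariate (limma adjusted p = 0.871). The sums of those markers were separate between the groups, so that covariate and the label cannot be fully told apart. Of 10 mitophagy genes 0 were called. Optn, a receptor that links damaged mitochondria to autophagosomes, had 14.8, 15.5 and 14.6 FPKM in the libraries labelled CM-RevDKO and 21.9, 26.6 and 18.3 FPKM in those labelled control (log2 fold change -0.53, limma adjusted p = 0.104). Bnip3, an outer membrane mitophagy receptor, had 72.0, 59.7 and 72.9 FPKM with the label CM-RevDKO, against 90.2, 97.9 and 75.1 FPKM with the label control (limma adjusted p = 0.225). Groups of Optn and Bnip3 did not overlap, with lower values under the label CM-RevDKO, as for 10.5% of all genes.

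The 3 genes with the pattern nearest to that of Fis1 over the 6 libraries, among 7254 others averaging 5 FPKM or more, were Nsa2, Hscb and Npdc1. Their root mean square differences from Fis1 in log2(FPKM + 1), each gene centred on its control mean, were 0.03, 0.05 and 0.05. Nsa2 averaged 25.4 ± 3.14 FPKM in the libraries labelled CM-RevDKO and 20.5 ± 1.27 FPKM in those labelled control (SD, n = 3 each). None of these 3 genes passed the test (limma adjusted p of 0.246 to 0.346).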
